A study of Mus musculus with 36 samples.

Results

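The comparison concerned the stroma of SCC25 tumours in mice on a palmitic acid-rich diet, with cancer cells that carried either an shRNA against CD36 (shCD36) or a non-targeting shRNA (PLKO). It held 6 of the 36 arrays of the series, chosen by title, tumour line, diet and shRNA labels, with 3 arrays for shCD36 and 3 for PLKO. SCC25 is an established human line of oral squamous cell carcinoma, grown here orthotopically in NSG mice, which lack mature lymphocytes and natural killer cells. RNA came from host stromal cells that the labels call the neural fraction, and mouse probe sets were read. Further groups served for comparison: SCC25 shCD36 and SCC25 PLKO tumours on the control diet, and shCD36 and PLKO tumours of the second VDH15 experiment, another oral carcinoma line, on both diets, with 3 arrays each. A first VDH15 experiment, with PLKO tumours on palmitic acid-rich, oleic acid-rich and control diets, entered only the model over all groups. The age and sex of the mice are not given in the sources used here.

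The labels make the 3 arrays of a group technical replicates of 1 biological replicate, and they do not say whether these came from 1 tumour, 1 RNA or several mice. The spread between arrays may therefore be technical, and the contrast within SCC25 carries no p-value. The titles number the arrays of a group 1 to 3, whereas the technical replicate tag is the same for all 3 arrays of a group. The shRNA was in the human cancer cells, so the mouse probe sets do not check the knockdown.

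CD36 is a membrane receptor that takes up long-chain fatty acids such as palmitate, and in oral carcinoma it is known from cells that start metastases. Schwann cells, the glia of peripheral nerves, can take on a repair state after injury in which they secrete matrix and signalling proteins. Fibroblasts and pericytes make most of the collagenous matrix of tumours, and stratified epithelium ends its differentiation by building a cornified envelope of cross-linked proteins and lipids.

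The 6 arrays had medians between 6.62 and 6.67 log2 over 17097 genes. Arrays of 1 group correlated at r = 0.993 or more across the 12823 genes kept after a filter on dim genes, and arrays of different groups at 0.977 to 0.983. No pair of arrays held identical values. Mouse Cd36 had 5.05, 5.25 and 5.12 log2 on the shCD36 arrays, against 5.73, 5.70 and 5.46 log2 on the PLKO arrays, close to the level below which genes were left out (5.19 log2). The difference of Cd36 was −0.49 log2 and its groups did not overlap. Of 5 Schwann cell markers measured, 4 lay above that level: Sox10, Ngfr, Erbb3 and Gfra3. S100b lay below it. The mean of these 5 markers was 6.82 to 6.85 log2 with shCD36, against 6.78 to 6.84 log2 with PLKO, so the groups overlapped. All 6 keratinocyte markers, among them Krt5 and Krt14, lay above that level, with means of 10.5 log2 in both groups. The RNA labelled "neural fraction" thus also gave signal at epithelial genes, and endothelial and fibroblast genes were measured as well. Whether the epithelial signal, here and below, came from mouse cells or from the human cancer cells was not tested.

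A gene was called higher or lower where the means of both groups differed by at least 1 log2, which is 2-fold, and no array of 1 group lay within the range of the other. By this rule 244 of 12823 genes (1.9%) were called, 79 higher with shCD36 (0.616%) and 165 lower (1.29%). The median difference was 1.37 log2 among the higher genes and −1.36 log2 among the lower genes, against 0.03 log2 over all genes. More than 4-fold differences were found in 17 higher and 31 lower genes. Groups of arrays that did not overlap were common, at 28.8% of all genes, so the size of the difference carries the call. The higher genes had a median level of 6.07 log2 in PLKO tumours, while the lower genes had 9.91 log2 and reached the brightest probe sets on the array, such as those of Col3a1 and Col1a1.

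**Figure D1:**
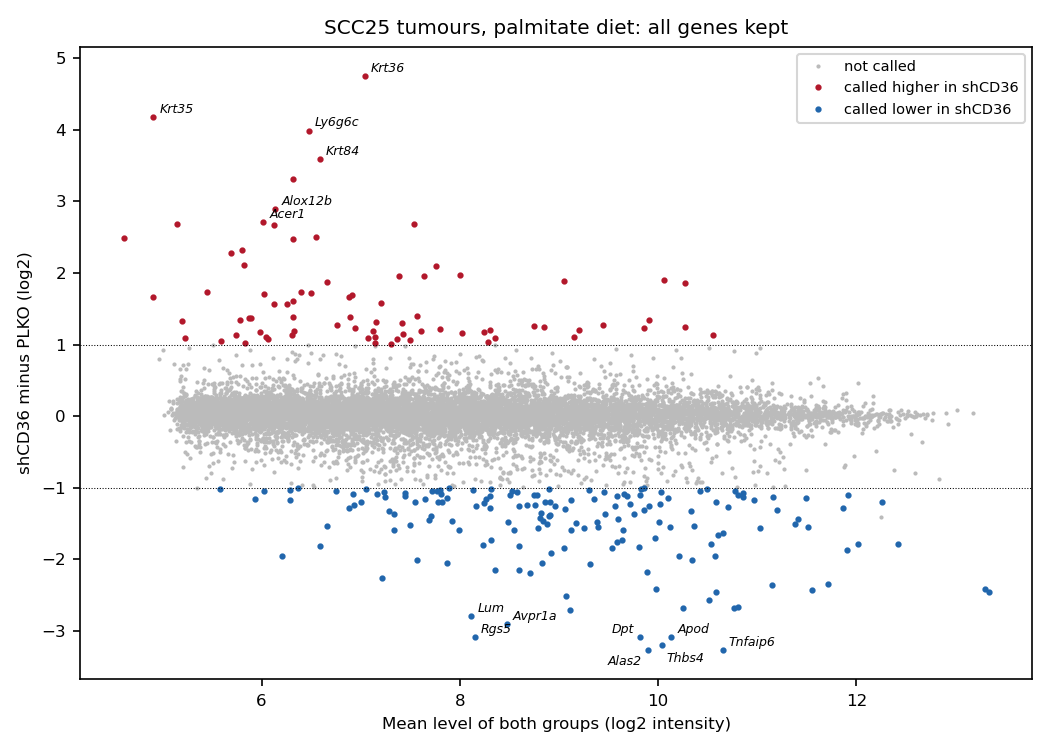
Difference shCD36 minus PLKO (log2, vertical axis) against the mean level of both groups (log2 intensity, horizontal axis) for 12823 genes in SCC25 tumours on the palmitic acid-rich diet. Red points are the 79 genes called higher with shCD36, blue points the 165 called lower, and dotted lines mark a difference of 1 log2 either way. Krt36 lies highest at 4.75 log2, and Alas2 and Tnfaip6 lie lowest at −3.27 log2.

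Keratins of hard epithelial structures headed the genes higher with shCD36. Krt36 had 9.54, 9.43 and 9.29 log2 on the shCD36 arrays, against 4.93, 4.48 and 4.59 log2 on the PLKO arrays, a difference of 4.75 log2 or 27.0-fold. Krt35 had 7.13, 7.03 and 6.82 log2 with shCD36, against 3.14, 2.61 and 2.71 log2 with PLKO, 4.17 log2 higher. Krt84 had 8.33, 8.45 and 8.36 log2 with shCD36, against 5.02, 4.44 and 4.91 log2 with PLKO, 3.59 log2 higher. All 3 shCD36 arrays lay far above all 3 PLKO arrays for these keratins, which are known from hair, nail and the papillae of the tongue. Trichohyalin (Tchh), a protein of the hair follicle's inner sheath and of tongue papillae, was 2.49 log2 higher with 5.42, 5.88 and 6.27 log2 on the shCD36 arrays, against 3.22, 3.50 and 3.36 log2 on the PLKO arrays. In 13 of the 15 highest genes the PLKO mean lay below the filter level of 5.19 log2, so these differences rest on dim PLKO signals, for which no background call was used here. Ly6g6c, a gene of the Ly6 family of surface proteins, had 8.34, 8.75 and 8.32 log2 with shCD36, against 4.64, 4.24 and 4.58 log2 with PLKO, 3.99 log2 higher. The epithelial keratins of the keratinocyte list were mixed in comparison. Krt6b, a keratin of stressed epithelium, was 1.86 log2 higher, Krt10 of suprabasal epidermis 1.71 log2 and Krt4 of moist mucosa 1.34 log2. Krt6b had 11.23, 11.19 and 11.20 log2 with shCD36, against 9.04, 9.12 and 9.87 log2 with PLKO. The tight junction gene Cldn4 was 1.24 log2 higher. These 4 were the only called members of 19 measured in the keratinocyte and epithelial list, whose median was 0.16 log2. The basal keratins Krt5 and Krt14 stood at −0.00 and 0.00 log2.

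Cornified envelope and late differentiation genes were the list with the highest median, 1.37 log2, and 11 of its 19 measured genes were called higher and 0 lower. All 19 had a higher mean with shCD36, where 58.1% of all genes did. Alox12b, a lipoxygenase of the skin barrier, had 7.51, 7.54 and 7.71 log2 with shCD36, against 4.36, 4.83 and 4.88 log2 with PLKO, 2.89 log2 higher. Acer1, the alkaline ceramidase of differentiated epidermis, had 7.44, 7.33 and 7.33 log2 with shCD36, against 4.31, 4.84 and 4.83 log2 with PLKO, 2.71 log2 higher. Both genes act on lipids of the outer epithelium, and the groups were separated by more than 2 log2. The small proline-rich proteins Sprr1a and Sprr1b are cross-linked into the envelope itself. Sprr1a had 8.76, 9.0 and 8.87 log2 with shCD36, against 6.19, 6.07 and 6.32 log2 with PLKO, 2.69 log2 higher. Sprr1b had 7.27, 7.57 and 7.54 log2 with shCD36, against 4.63, 4.89 and 4.84 log2 with PLKO, 2.67 log2 higher. Cornifelin (Cnfn) was 2.47 log2 higher and Sprr2d 2.09 log2 higher. The other called members were the transglutaminase Tgm3 (1.98 log2), which makes the cross-links, Krtdap (1.95), the protease inhibitor Spink5 (1.60), loricrin (Lor, 1.37) and suprabasin (Sbsn, 1.10). The desmosomal cadherin Dsc1, 2.28 log2 higher, and the serpin Serpinb3a, 2.31 log2 higher, were also among the 15 highest genes. The mean level of the list was 7.59 to 7.75 log2 on the shCD36 arrays, against 6.28 to 6.36 log2 on the PLKO arrays. The 6 general keratinocyte markers had means of 10.5 log2 in both groups, and 0 of them were called. The wider keratinocyte and epithelial list, which holds 4 called genes, did differ in mean level. It had 10.78 to 10.84 log2 on the shCD36 arrays, against 10.28 to 10.44 log2 on the PLKO arrays, with 15 of 19 means higher.

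**Figure D2:**
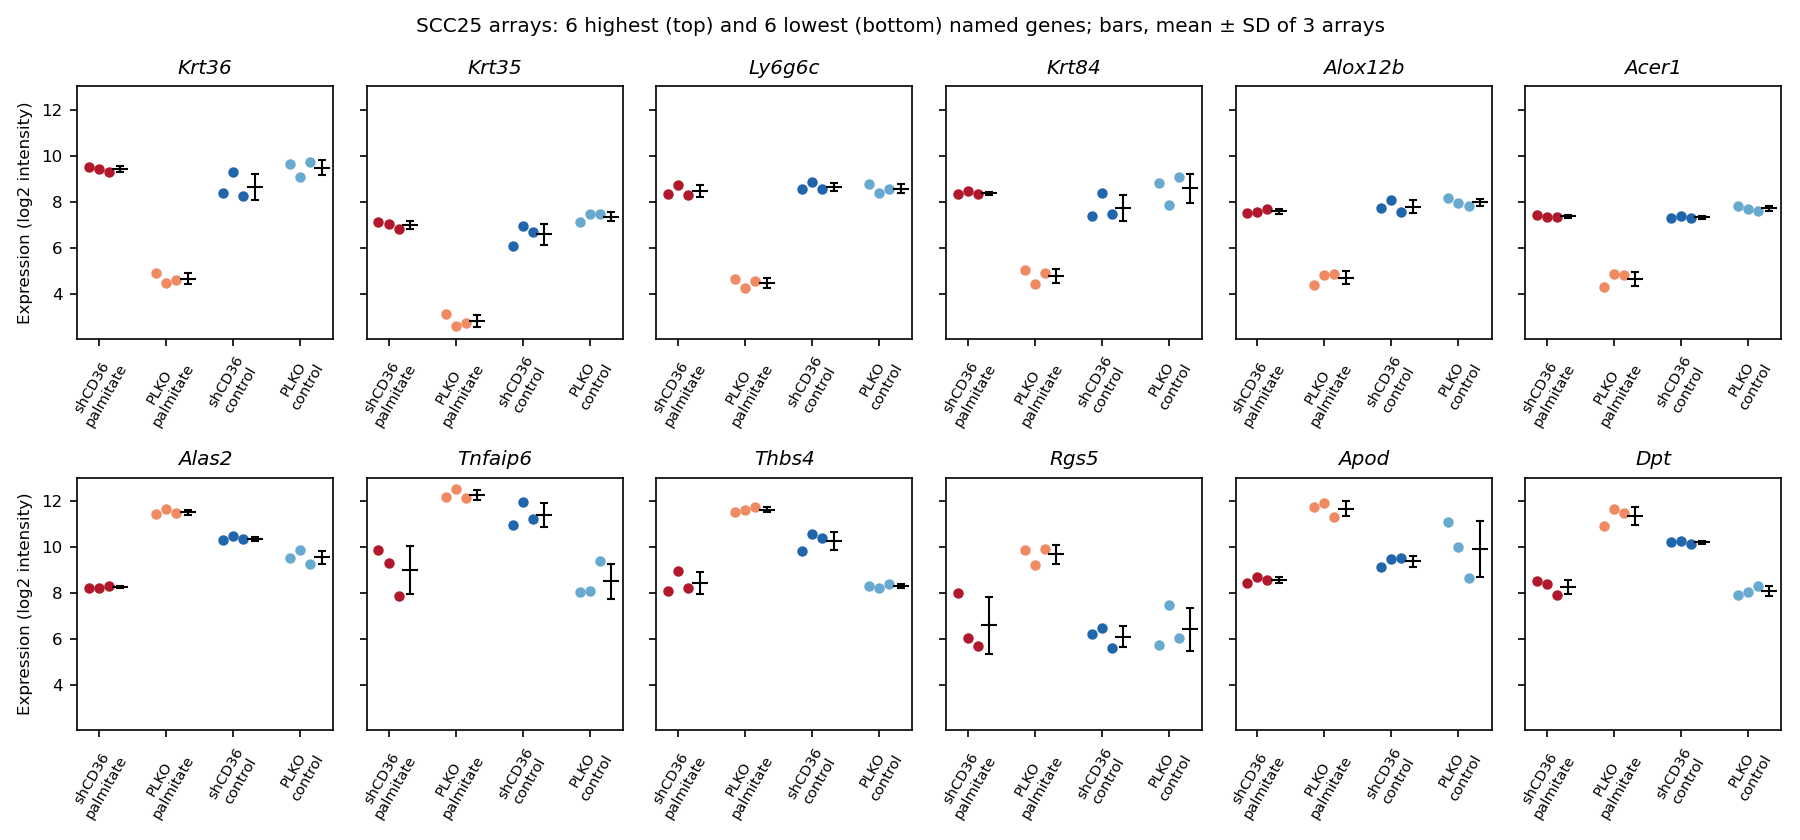
Expression (log2 intensity) of the 6 highest (top row) and 6 lowest (bottom row) named genes on each SCC25 array, in the order shCD36 palmitate, PLKO palmitate, shCD36 control and PLKO control. Points are arrays and bars are mean ± SD of 3 arrays. In the top row the PLKO palmitate arrays lie below the other 9 arrays, and in the bottom row the PLKO palmitate arrays lie above the shCD36 palmitate arrays throughout.

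The promoters of Sprr1a and Sprr1b are shown because both envelope genes stood 2.67 log2 or more higher and both hold the AP-1 letters TGANTCA, a motif known from differentiating keratinocytes. The sequences are the 250 bases before the gene start, 5′ to 3′ on the gene's strand, from RefSeq annotation of GRCm38.p6. Sprr1a lies on the minus strand at chr3:92485882-92486131 and holds 2 matches, which begin 146 and 116 bases before the start. Sprr1b lies on the minus strand at chr3:92438780-92439029 and holds 1 match, which begins 111 bases before the start. Capitals mark the matches.
Sprr1a: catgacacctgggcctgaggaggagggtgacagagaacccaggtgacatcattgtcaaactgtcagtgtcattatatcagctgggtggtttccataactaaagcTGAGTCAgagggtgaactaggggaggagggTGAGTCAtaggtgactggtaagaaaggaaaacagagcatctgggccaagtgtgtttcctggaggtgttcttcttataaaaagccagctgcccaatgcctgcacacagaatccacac
Sprr1b: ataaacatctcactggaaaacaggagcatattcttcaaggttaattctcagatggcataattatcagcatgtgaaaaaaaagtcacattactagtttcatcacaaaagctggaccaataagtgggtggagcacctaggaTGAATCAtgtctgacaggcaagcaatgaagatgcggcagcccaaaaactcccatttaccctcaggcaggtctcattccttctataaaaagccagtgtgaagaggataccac
Promoters were found for 13 of the 15 highest genes, and TGANTCA, searched on both strands, occurred in 2 of them (15.4%), against 7.82% of the promoters of 27025 genes. TATAAA, searched on both strands, occurred in 6 of the 13 (46.2%), against 14.3% of all: Ly6g6c, Krt84, Sprr1a, Gsta2, Sprr1b and Serpinb3a. Among the 15 lowest genes 10 promoters were found, with TATAAA in 3 and TGANTCA in 1. No capital match overlapped a match of another motif searched. A match describes letters in the window and was not tested as a site.

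Lipid synthesis genes differed in 2 members. Elovl4, which elongates very long-chain fatty acids for barrier lipids, had 7.96, 7.46 and 7.98 log2 with shCD36, against 4.95, 5.42 and 5.54 log2 with PLKO, 2.50 log2 higher. Malic enzyme (Me1), which supplies NADPH for lipid synthesis, had 8.30, 8.14 and 8.18 log2 with shCD36, against 7.03, 7.01 and 6.99 log2 with PLKO, 1.19 log2 higher. These were the called genes of 18 in the fatty acid synthesis and desaturation list, with a median of 0.18 log2. Cholesterol synthesis held 0 called genes of 14, with a median of 0.25 log2 and Sqle highest at 0.72 log2. Of the 14, 13 had a higher mean with shCD36, against 58.1% of all genes. Of 22 PPAR targets and fatty acid oxidation genes, 1 was called, the fatty acid carrier Fabp4 at −1.43 log2, and the list median was −0.01 log2. The detoxifying enzyme Gsta2 and carboxypeptidase M (Cpm) were 2.68 and 2.11 log2 higher.

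Collagens had the lowest median of the 37 lists, −1.06 log2, with 10 of 20 measured genes called lower and 0 higher, and 19 of 20 means were lower. The fibrillar collagen Col3a1 had 13.13, 12.03 and 11.16 log2 with shCD36, against 14.62, 14.58 and 14.50 log2 with PLKO, a difference of −2.46 log2. Col1a1 had 13.59, 11.52 and 11.15 log2 with shCD36, against 14.78, 14.33 and 14.40 log2 with PLKO, a difference of −2.42 log2. The type VI chain Col6a3 had 11.14, 9.50 and 9.27 log2 with shCD36, against 12.64, 12.27 and 12.08 log2 with PLKO, a difference of −2.36 log2. For all 3 collagens shCD36 array 1 was the highest of its group and still below every PLKO array, which the rule for a call requires. The shCD36 arrays spread far more than the PLKO arrays. The other called collagens were Col14a1 (−2.04 log2), Col5a2 (−1.78), Col6a1 (−1.66), Col5a3 (−1.63), Col5a1 (−1.55), Col6a2 (−1.48) and the basement membrane chain Col4a2 (−1.14). Lysyl oxidase (Lox), which cross-links collagen and elastin, had 9.47, 9.62 and 9.31 log2 with shCD36, against 11.79, 12.53 and 12.09 log2 with PLKO, a difference of −2.67 log2.

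Some secreted matrix proteins and matrix enzymes were called lower too. Tnfaip6, a hyaluronan-binding protein of inflamed matrix, had 9.88, 9.30 and 7.86 log2 with shCD36, against 12.17, 12.54 and 12.15 log2 with PLKO, a difference of −3.27 log2. Thrombospondin 4 (Thbs4) had 8.12, 8.99 and 8.22 log2 with shCD36, against 11.53, 11.64 and 11.75 log2 with PLKO, a difference of −3.20 log2. The groups of both genes were more than 2 log2 apart at their nearest arrays. The lubricant proteoglycan Prg4 (−2.71 log2), the secreted protein Crispld2 (−2.67) and the microfibril protein Mfap5 (−2.57) were lower too. Of 19 matrix glycoproteins and laminins 5 were called lower, Thbs4, Postn (−2.01), Thbs2 (−1.37), Tnxb (−1.20) and Eln (−1.08), with a list median of −0.54 log2. Of 20 matrix proteases and inhibitors 6 were called lower, with a median of −0.53 log2. They were the aggrecanase Adamts4 (−1.56 log2), the collagen-degrading cathepsin Ctsk (−1.56), the inhibitor Timp1 (−1.501), Mmp19 (−1.43), Adam12 (−1.12) and Mmp2 (−1.02). In the TGF-beta response list 2 of 17 were called lower, the ligand Tgfb3 (−1.26) and the matricellular target Ccn2 (−1.42), and the median was −0.16 log2.

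The fibroblast list had a median of −0.76 log2, with 7 of 15 called lower and 0 higher. Dermatopontin (Dpt), a small matrix protein of dermal fibroblasts, had 8.52, 8.41 and 7.92 log2 with shCD36, against 10.93, 11.67 and 11.48 log2 with PLKO, a difference of −3.08 log2. The proteoglycan lumican (Lum) had 7.01, 6.72 and 6.43 log2 with shCD36, against 9.59, 9.93 and 9.01 log2 with PLKO, a difference of −2.79 log2. Serpinf1 (−1.95 log2) and Fap (−1.44) were lower, while the proteoglycan Dcn, at −0.76 log2, was not called. The collagen and fibroblast lists share members, Col1a1 and Col3a1 among them. Pericyte and smooth muscle genes held 3 called lower of 10 (median −0.38 log2). Rgs5, a pericyte regulator of G protein signalling, had 8.03, 6.06 and 5.73 log2 with shCD36, against 9.90, 9.23 and 9.94 log2 with PLKO, a difference of −3.08 log2, and its shCD36 arrays spanned more than 2 log2. The smooth muscle myosin Myh11 (−2.68 log2) and the myosin light chain Myl9 (−1.79) were the other called members. The vasopressin receptor Avpr1a and the apolipoprotein Apod, both among the 15 lowest genes, stood at −2.90 and −3.08 log2.

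All 19 measured endothelial genes had a lower mean with shCD36, with a median of −0.74 log2, and 4 were called. Von Willebrand factor (Vwf) had 8.33, 7.70 and 8.36 log2 with shCD36, against 9.71, 9.66 and 9.53 log2 with PLKO, a difference of −1.503 log2. The phosphatase Ptprb (−1.14 log2), the adhesion molecule Esam (−1.06) and the angiopoietin receptor Tek (−1.02) were the other called members. Alas2, the haem synthesis enzyme of red cell precursors, had 8.25, 8.22 and 8.31 log2 with shCD36, against 11.44, 11.66 and 11.49 log2 with PLKO, a difference of −3.27 log2. The alpha globin gene Hba-a1 stood at −0.88 log2. In bulk RNA, fewer cells of a type and less RNA per cell cannot be told apart. The mean of the 6 fibroblast markers was 8.21 to 9.06 log2 with shCD36, against 9.87 to 10.05 log2 with PLKO, with 3 of the 4 above the filter level called lower. Pdgfra and Col1a2 lay below it and stood at 0.04 and −0.01 log2. The 4 endothelial markers had means of 10.1 to 10.5 log2 with shCD36, against 11.1 log2 with PLKO, and the 2 red cell markers 10.3 to 10.4 log2 with shCD36, against 12.4 to 12.5 log2 with PLKO. The part of such cells in the matrix differences was not tested. The means of the macrophage markers overlapped, at 6.29 to 6.48 log2 with shCD36, against 6.45 to 6.50 log2 with PLKO. Adgre1 among them lay below the filter level, and Lyz2 stood at −0.98 log2. Among 15 macrophage and myeloid genes 0 were called, with a median of −0.03 log2, 9 means lower and 6 higher. Lyz2, Cd14 (−0.70) and Ctss (−0.63) were the lowest. The mean level of this list did not overlap, at 6.51 to 6.58 log2 with shCD36, against 6.71 to 6.75 log2 with PLKO.

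**Figure D3:**
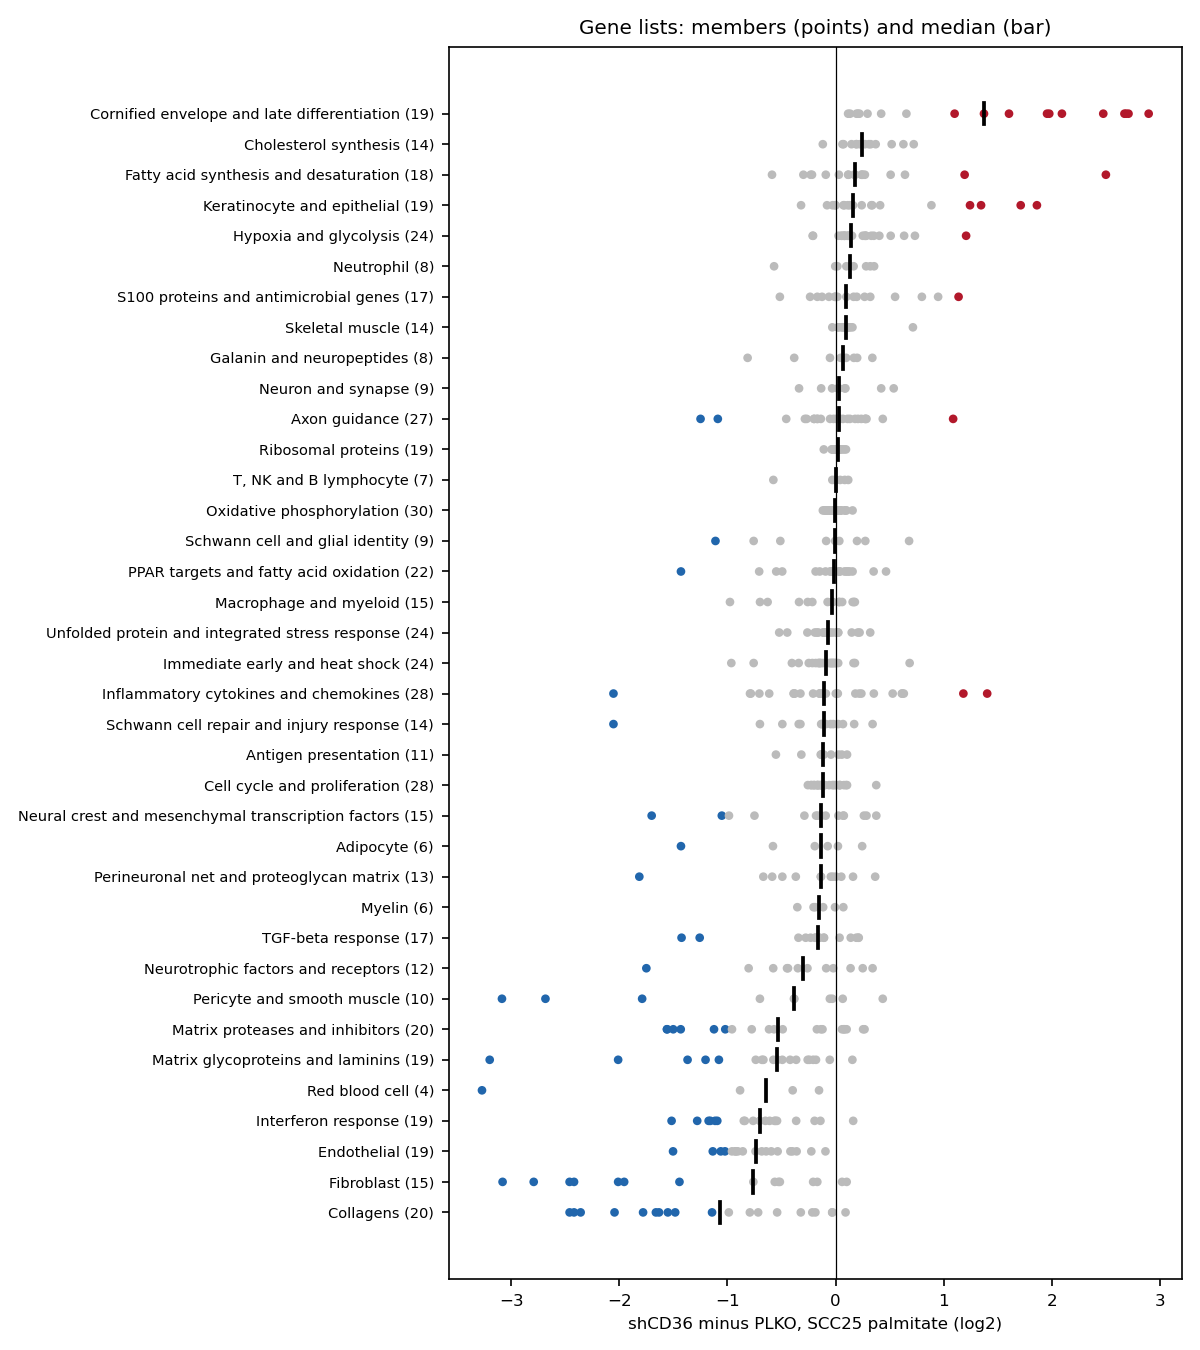
Difference shCD36 minus PLKO (log2) of every measured gene in 37 lists for SCC25 tumours on the palmitic acid-rich diet, with the number measured in brackets. Points are genes, red where called higher and blue where called lower, grey where not called, and black bars are list medians. Medians ran between 1.37 log2 for cornified envelope genes at the top and −1.06 log2 for collagens at the bottom.

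The interferon response list had a median of −0.70 log2, with 6 of 19 called lower, 0 higher and 18 of 19 means lower. Usp18, which removes the ubiquitin-like modifier ISG15 and damps interferon signalling, had 6.85, 6.83 and 6.52 log2 with shCD36, against 8.27, 8.18 and 8.31 log2 with PLKO, a difference of −1.52 log2. The antiviral enzyme viperin (Rsad2) had 11.80, 10.77 and 11.10 log2 with shCD36, against 12.46, 12.52 and 12.54 log2 with PLKO, a difference of −1.28 log2. Ifit1, which binds viral RNA, had 10.36, 10.04 and 10.36 log2 with shCD36, against 11.44, 11.31 and 11.30 log2 with PLKO, a difference of −1.09 log2. The other called members were Ifit2 (−1.17 log2), Xaf1 (−1.16) and Oasl2 (−1.11). Outside this list, Ube2l6, the conjugating enzyme for ISG15, had 7.79, 7.83 and 7.83 log2 with shCD36, against 10.30, 10.38 and 10.30 log2 with PLKO, a difference of −2.51 log2. Of 11 antigen presentation genes 0 were called, with a median of −0.12 log2 and the immunoproteasome gene Psmb8 lowest at −0.55 log2.

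The promoters of Ifit1 and Rsad2 are shown because both genes were called lower and both hold the core letters of the interferon-stimulated response element, searched on both strands as GAAA, any 2 bases and GAAA again. Ifit1 lies on the plus strand at chr19:34640639-34640888, with 2 matches that begin 104 and 85 bases before the gene start. Rsad2 lies on the minus strand at chr12:26456453-26456702, with 1 match that begins 120 bases before it. Both are the 250 bases before the gene start from RefSeq, GRCm38.p6, 5′ to 3′ on the gene's strand. Capitals mark the matches, which read here as the reverse complement, with TTTC at both ends.
Ifit1: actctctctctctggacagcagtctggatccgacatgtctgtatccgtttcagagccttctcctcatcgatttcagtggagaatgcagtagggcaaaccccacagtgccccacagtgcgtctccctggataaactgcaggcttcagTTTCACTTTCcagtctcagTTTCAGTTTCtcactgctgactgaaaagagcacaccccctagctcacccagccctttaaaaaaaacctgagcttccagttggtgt
Rsad2: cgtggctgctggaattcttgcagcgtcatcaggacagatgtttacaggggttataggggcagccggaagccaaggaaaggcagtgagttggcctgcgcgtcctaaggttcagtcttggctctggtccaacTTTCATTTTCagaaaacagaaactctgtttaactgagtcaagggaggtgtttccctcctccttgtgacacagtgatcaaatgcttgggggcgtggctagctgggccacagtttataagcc
Of 14 interferon list genes with a promoter, 5 held these core letters (35.7%), against 3.46% of 27025 genes. Besides Ifit1 and Rsad2 these were Ifit3, Stat2 and Gbp2, which were not called. The called genes Ifit2, Xaf1 and Oasl2 did not hold the core letters, and no promoter was found for Usp18. TGANTCA was found in 5 of the 14 as well, and TATAAA in 4. Among the promoters found for the 15 highest and 15 lowest genes the core letters were found in 0.

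Some lists of nerve and glial genes held called members and others held none. In lists this short, 1 called gene is already a larger share than the 1.9% of all genes. The Schwann cell and glial identity list had a median of −0.00 log2 over 9 genes, with 1 called lower. This was the sodium channel Scn7a, with 8.00, 7.90 and 7.34 log2 with shCD36, against 8.47, 9.16 and 8.95 log2 with PLKO, a difference of −1.11 log2. Sox10, the master regulator of Schwann cells, stood at −0.00 log2, and the adhesion gene L1cam at 0.68 log2 without being called. Egr2 and Ncam1 stood at −0.76 and −0.51 log2, also without being called. In this list 4 means were higher and 5 lower. Its mean level was 7.47 to 7.63 log2 with shCD36, against 7.66 to 7.72 log2 with PLKO. Of 6 myelin genes 0 were called, with a median of −0.15 log2 and Mal lowest at −0.35 log2. The Schwann cell repair and injury response list had 1 called gene of 14, the cytokine Il6, which had 7.79, 7.47 and 8.15 log2 with shCD36, against 9.75, 10.26 and 9.57 log2 with PLKO, a difference of −2.05 log2. Il6 is also made by fibroblasts and other stromal cells. The median of the repair list was −0.11 log2, with 10 means lower and 4 higher. Its mean level was 8.82 to 8.83 log2 with shCD36, against 9.01 to 9.15 log2 with PLKO. Among 13 genes of perineuronal nets and matrix proteoglycans, versican (Vcan) was called, with 7.62, 7.77 and 7.69 log2 with shCD36, against 9.04, 9.995 and 9.49 log2 with PLKO, a difference of −1.81 log2. The median of these 13 genes was −0.14 log2, with 9 means lower and 4 higher. Their mean level was 7.71 to 7.76 log2 with shCD36, against 7.96 to 8.07 log2 with PLKO.

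Galanin and neuropeptide genes held 0 called of 8, with a median of 0.07 log2. The neuropeptide gene Gal had 6.30, 6.82 and 6.25 log2 with shCD36, against 6.08, 6.01 and 6.27 log2 with PLKO, and the groups overlapped. Galr1 stood at 0.17 log2 and Galr3 at 0.05 log2, and Galr2 lay below the filter level. Among 12 neurotrophic factors and receptors the growth factor Igf1 was called, with 9.04, 8.65 and 8.44 log2 with shCD36, against 10.22, 10.94 and 10.22 log2 with PLKO, a difference of −1.75 log2, and the median was −0.30 log2. Of 27 axon guidance genes the receptor Nrp1 (−1.25 log2) and netrin 4 (Ntn4, −1.09) were called lower and the semaphorin Sema4d (1.09) higher, with a median of 0.03 log2. Neuron and synapse genes held 0 called of 9, with the tubulin Tubb3 highest at 0.54 log2. The mesenchymal transcription factors Prrx1 (−1.70 log2) and Zeb1 (−1.05) were called lower among 15 genes, with a list median of −0.13 log2. Prrx1 had 9.37, 9.10 and 8.90 log2 with shCD36, against 10.74, 11.01 and 10.72 log2 with PLKO.

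Cytokines went both ways. Il20, an interleukin that acts on epithelium, had 8.21, 8.14 and 8.45 log2 with shCD36, against 6.66, 6.74 and 7.20 log2 with PLKO, 1.40 log2 higher. Il33, an alarmin of epithelial and stromal cells, had 8.66, 8.98 and 8.86 log2 with shCD36, against 7.68, 7.52 and 7.75 log2 with PLKO, 1.18 log2 higher. With Il6 these were the 3 called of 28 inflammatory cytokines and chemokines, whose median was −0.11 log2. The antimicrobial defensin Defb3 (1.14 log2) was the called gene of 17 in the S100 and antimicrobial list. Egln3, an oxygen-sensing hydroxylase, was the called gene of 24 in the hypoxia and glycolysis list, with 9.63, 9.87 and 9.90 log2 with shCD36, against 8.42, 8.65 and 8.72 log2 with PLKO, 1.21 log2 higher. In that list 22 of 24 means were higher, against 58.1% of all genes, with a median of 0.14 log2. Cell cycle (28 genes), oxidative phosphorylation (30), ribosomal protein (19), stress response (24), immediate early and heat shock (24), neutrophil (8), lymphocyte (7) and skeletal muscle genes (14) held 0 called genes, with medians between −0.12 and 0.13 log2. The adipocyte list had a median of −0.13 log2 over 6 genes with Fabp4 called, and the red blood cell list −0.64 log2 over 4 genes with Alas2 called.

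The same shRNA comparison on the control diet, in other SCC25 arrays, gave fewer calls and mostly the opposite sign for the genes called on palmitate. There 106 genes were called (0.827%), 79 higher (0.616%) and 27 lower (0.211%) with shCD36. Of the 79 genes higher on palmitate, 7 were higher on the control diet too, against 45.2% of all genes, and the median of the 79 was −0.44 log2 there. Of these 79, 0 were called higher and 7 were called lower on the control diet. Of the 165 genes lower on palmitate, 14 were lower on the control diet, against 54.8% of all genes, with a median of 0.73 log2, and 49 were called higher and 5 lower. Collagens had a control diet median of 0.97 log2 with 10 of 20 called higher with shCD36, endothelial genes 0.75 log2 with 6 of 19 and fibroblast genes 0.30 log2 with 5 of 15. Cornified envelope genes had a control diet median of −0.18 log2, with 1 called each way. The difference between diets within SCC25 was not tested, and over both experiments limma called 0 genes for it.

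The levels of the called genes were also read in all 4 SCC25 groups. These genes were chosen by the difference between the palmitate groups, so their levels cannot show which group stood apart. The 79 higher genes had median levels of 7.72 log2 in shCD36 palmitate, 6.07 in PLKO palmitate, 7.42 in shCD36 control and 7.85 log2 in PLKO control tumours. The 165 lower genes had medians of 8.28 log2 in shCD36 palmitate, 9.91 in PLKO palmitate, 8.70 in shCD36 control and 7.90 log2 in PLKO control tumours. In both sets the PLKO palmitate group lay farthest from the others. It is the group that the calls were made against, so the choice of genes favours this. Col3a1 averaged 12.1 log2 in shCD36 palmitate and 14.6 log2 in PLKO palmitate tumours, and 13.8 log2 in shCD36 control and 9.82 log2 in PLKO control tumours. For this gene the PLKO control group lay farthest from the others. The shRNA difference of Col3a1 was thus −2.46 log2 on palmitate and 3.94 log2 on the control diet. Interferon genes as a list did not change sign between diets. Their list level was 8.51 to 8.65 log2 in shCD36 palmitate, against 9.28 to 9.34 log2 in PLKO palmitate tumours, and 8.63 to 8.72 log2 in shCD36 control, against 9.19 to 9.26 log2 in PLKO control tumours. The list median was −0.70 log2 on palmitate and −0.49 log2 on the control diet, where 5 of 19 were called lower. On the control diet Ifit1 stood at −1.60 log2, Usp18 at −1.21 log2 and Xaf1 at −1.15 log2.

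**Figure D4:**
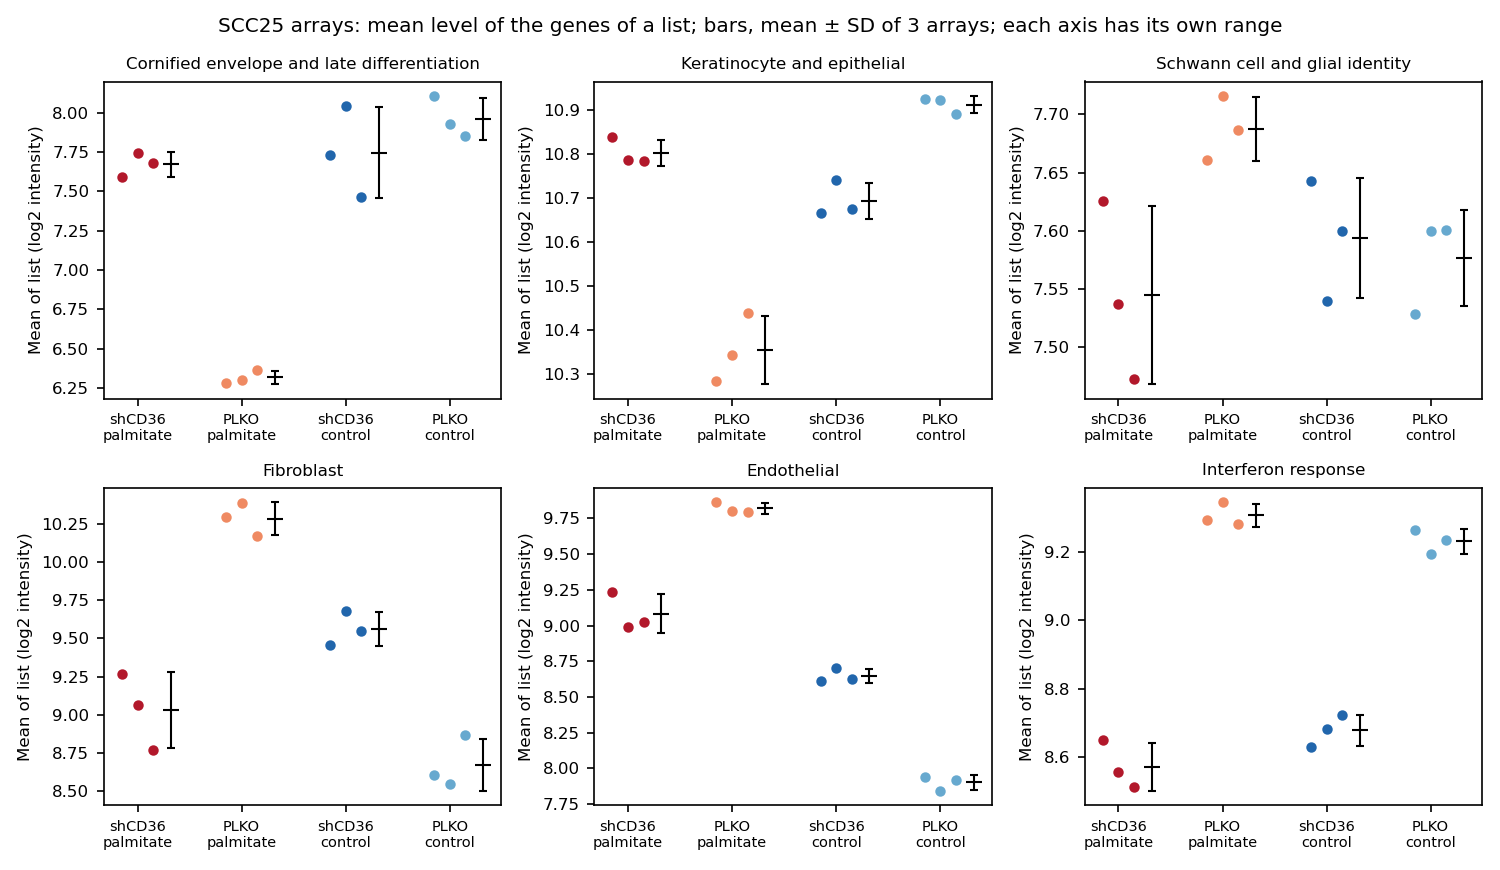
Mean level (log2 intensity) of the measured genes of 6 lists on each SCC25 array, in the order shCD36 palmitate, PLKO palmitate, shCD36 control and PLKO control. Points are arrays, bars are mean ± SD of 3 arrays, and each panel has its own vertical range. Cornified envelope genes were lowest in PLKO palmitate (6.28 to 6.36 log2), and interferon genes were lower in both shCD36 groups than in both PLKO groups.

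The second VDH15 experiment asked the same question in another tumour line, on arrays that share no sample with SCC25. On palmitate it called 529 genes (4.13%), 198 higher (1.54%) and 331 lower (2.58%) with shCD36. Of the 79 genes higher in SCC25, 77 were higher in VDH15 (97.5%, against 52.0% of all genes), and 59 were called higher there, which is 74.7% of the 79 and 29.8% of the 198. Of the 165 lower genes, 156 were lower in VDH15 (94.5%, against 48.0% of all genes), and 69 were called lower, which is 41.8% of the 165 and 20.8% of the 331. No gene was called in opposite directions. The VDH15 median was 1.44 log2 for the genes higher in SCC25 and −0.94 log2 for the lower ones. Across all genes the differences of both experiments correlated at r = 0.57, as a description over 12823 genes that are not independent replicates. On the control diet of the second VDH15 experiment 70 genes were called (0.546%), and the medians there were 0.03 log2 for the 79 higher genes and 0.26 log2 for the 165 lower genes.

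The main groups were then set side by side in both lines. Cornified envelope genes had a median of 1.37 log2 in SCC25 and 1.43 log2 in VDH15, with 11 and 12 of 19 called higher. Collagens had −1.06 and −0.98 log2, with 10 of 20 called lower in each, and interferon genes −0.70 log2 in both, with 6 and 7 of 19 called lower. Endothelial genes had −0.74 log2 in SCC25 and −1.53 log2 in VDH15, with 4 and 15 of 19 called lower. The hard keratin Krt36 was 4.75 log2 higher in SCC25 and 1.10 log2 higher in VDH15. Dpt stood at −3.08 log2 in SCC25 and −0.03 log2 in VDH15, and Alas2 at −3.27 and 0.51 log2. The gap between lines on palmitate alone was not tested. For the shRNA difference averaged over both diets, limma on the 11 group averages with a term for shCD36 in SCC25 called 0 of 12823 genes between lines at an adjusted p under 0.05, with 839 at an unadjusted p under 0.05. Its smallest adjusted p was 0.262. Among the genes with the smallest p in that test, Lcn2 stood on palmitate at 0.02 log2 in SCC25 and −2.30 log2 in VDH15, Oasl1 at −0.14 and −2.20, and Serpina3n at −0.06 and −1.77.

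**Figure D5:**
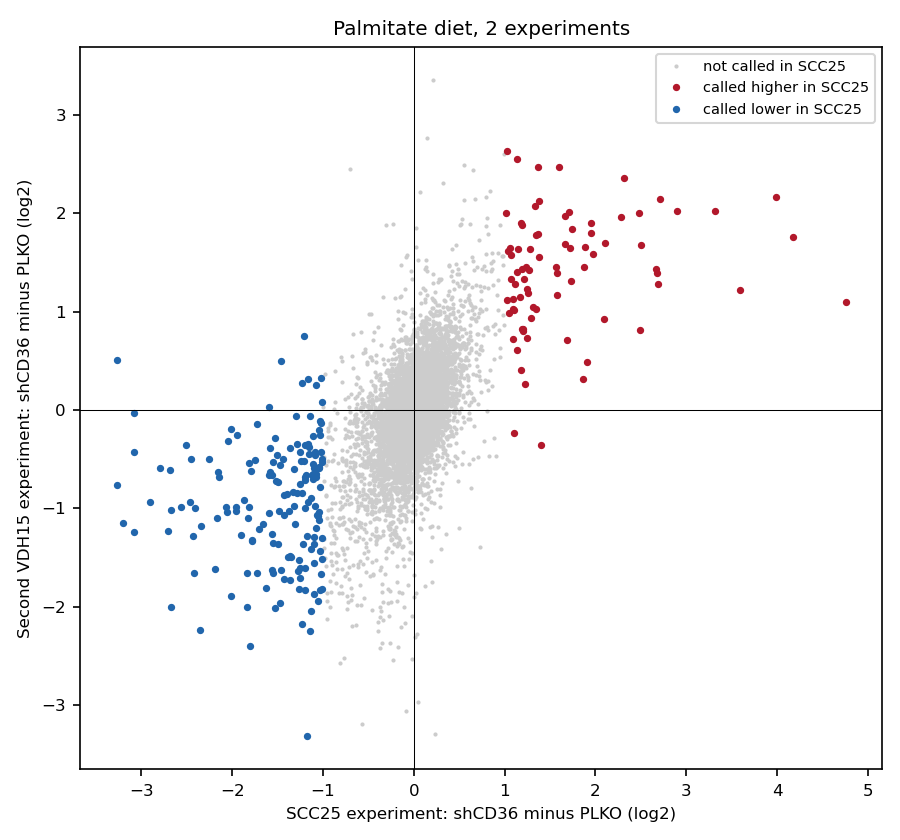
Difference shCD36 minus PLKO (log2) on the palmitic acid-rich diet in SCC25 (horizontal axis) and in the second VDH15 experiment (vertical axis), for 12823 genes. Red points are the 79 genes called higher and blue points the 165 called lower in SCC25. Of the red points 77 lie above 0 in VDH15, and of the blue points 156 lie below 0.

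Both experiments together gave the replicated test, limma on the averages of the 11 groups. On palmitate these held 2 biological replicates with shCD36 and 3 with PLKO, the third being the first VDH15 experiment. It called 48 of 12823 genes (0.374%) at a Benjamini-Hochberg adjusted p under 0.05, 30 that rose with shCD36 (0.234%) and 18 that fell (0.14%). Of the 79 genes called higher in SCC25, 19 rose in this test, and of the 165 called lower 8 fell. SCC25 is 1 of its 2 shCD36 replicates, so the test is not independent of the SCC25 calls. Acer1 rose by 2.50 ± 0.19 log2 (SE, limma adjusted p = 0.0262) and was higher in 2 of 2 experiments. Also among the rising genes with the smallest p were the scaffold gene Homer2 (1.69 ± 0.14 log2, limma adjusted p = 0.0262), the phospholipase Pla2g4f (1.72 ± 0.16, 0.0283), the saposin-like Psapl1 (1.88 ± 0.18, 0.0283), the cholesterol sulfotransferase Sult2b1 (1.17 ± 0.11, 0.0283) and Selenbp2 (1.20 ± 0.12, 0.0283). Pla2g4f, Sult2b1 and Acer1 code for enzymes of lipids. Of the cornified envelope list Acer1, Tgm3, Krtdap and Spink5 passed, of the Schwann list L1cam (0.62 ± 0.07) and of the hypoxia list Egln3 (0.98 ± 0.13).

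Interferon-related and matrix genes were the ones that fell with the smallest p. The anthrax toxin receptor Antxr2, which binds collagen VI, fell by 1.01 log2 (SE 0.08, limma adjusted p = 0.0262). The interferon-induced genes Parp14 (−1.05 ± 0.08 log2, limma adjusted p = 0.0262), Ifit1 (−1.19 ± 0.11, 0.0283), Samd9l (−0.88 ± 0.08, 0.0283) and Rnf213 (−0.99 ± 0.10, 0.0314) fell too. These genes were also lower on the control diet. There Parp14 stood at −0.73 log2 in SCC25 and −0.69 in VDH15, and Ifit1 at −1.60 and −1.28. Samd9l stood at −0.77 and −0.83, and Rnf213 at −0.65 and −0.48. The interferon list median on the VDH15 control diet was −0.78 log2, with 6 of 19 called lower, against 0.351% of all genes. The collagen-degrading cathepsin Ctsk fell by 1.39 log2 (SE 0.14, limma adjusted p = 0.0314). Of the lists, Postn (−1.83 ± 0.22), Col6a2 (−1.20 ± 0.14), Mmp19 (−1.502 ± 0.18), Ccn2 (−1.28 ± 0.15), Prrx1 (−1.46 ± 0.15), Klf2 (−0.96 ± 0.11), Cxcl9 (−0.81 ± 0.10) and the RNA sensor Ddx58 (−0.75 ± 0.10) also passed, at limma adjusted p between 0.0314 and 0.0452. None of the 15 genes lowest in SCC25 passed this test, and of the 15 highest Acer1 did. Lox stood at −2.14 ± 0.35 log2 (limma adjusted p = 0.0719), Col3a1 at −1.23 ± 0.91 (0.528) and Krt36 at 2.75 ± 0.79 (0.156). Whether the shRNA difference itself depended on diet was asked in the same fit. It called 0 genes at an adjusted p under 0.05, with 2011 at an unadjusted p under 0.05, and its smallest adjusted p was 0.0516, for Acer1.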

How the data were processed

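The deposited values are log2 intensities of 36 mouse Affymetrix arrays, which the authors made by robust multi-array averaging; per the submitters' processing notes the tools were RMA and affy. The coefficients of the labelled batches lay below 1e-06 in 100% of 45141 probe sets once diet and shRNA were modelled, and in 0.00222% without them. The deposited values thus carry a batch adjustment. All 6 arrays share hybridization batch, scan batch and line, so an additive adjustment cancels within this comparison. Raw intensities and background calls were not used here.

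Of the probe sets, 28898 had 1 gene, 551 several and 15692 none; 28689 matched a RefSeq identifier. Each of 17097 genes was read at its brightest probe set on average (7180 had several), and the 25% of lowest mean (under 5.19 log2) were left out, which kept 12823. Calls need 1 log2 and no overlap. The 11 group averages were modelled in limma 3.58.1 (R 4.3.3) with condition and experiment as terms (4 residual degrees of freedom), on 2 shCD36 and 3 PLKO biological replicates on palmitate, and p-values were adjusted by Benjamini-Hochberg over all genes. The code was tested on simulated data. Precision is limited by how few biological replicates there are.

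The members and the 37 gene lists were chosen with earlier results of these data known. Named were the 15 highest and 15 lowest called genes with an established name, up to 4 members per list, up to 6 a direction per limma contrast (3 where none was called), Cd36, Gal and the galanin receptors. Other genes complete a count and were chosen after their values were seen. Alternatives were the filter, the mean of probe sets, a second normalization, the fold, arrays left out and other fits.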

Additional observations from a re-analysis of the deposited data

Results flagged for a closer look

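For 19 of the 30 highest and lowest genes, all shCD36 arrays lay on one side of all PLKO arrays on palmitate and on the opposite side on the control diet, in SCC25 tumours. The rule for a call includes no overlap on palmitate, so that side was fixed by the choice of genes. Of all genes, 28.8% did not overlap on palmitate. The share of all genes on opposite sides on both diets was not computed. Among the genes higher with shCD36 on palmitate, the control diet difference was −0.77 log2 for Krt35, −0.40 for Acer1, −0.84 for Sprr1a, −0.47 for Gsta2, −0.78 for Sprr1b, −0.74 for Cnfn and −0.45 log2 for Serpinb3a. Among the genes lower on palmitate it was 0.82 log2 for Alas2, 2.88 for Tnfaip6, 1.95 for Thbs4, 2.11 for Dpt, 1.25 for Lum, 1.99 for Prg4 and 1.59 log2 for Myh11. It was 1.73 log2 for Crispld2, 1.28 for Lox, 1.70 for Mfap5, 0.25 for Ube2l6 and 3.94 log2 for Col3a1. Within SCC25 the difference between diets was not tested, since each group is 1 biological replicate. Over both experiments, limma on averages gave these 19 genes adjusted p-values between 0.0516 (Acer1) and 0.326 (Alas2) for the difference between diets.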

How the results depend on the processing

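The 244 genes called in SCC25 became 613 at 1.5-fold (208 higher, 405 lower), 1859 with limma over the 12 SCC25 arrays (895 higher, 964 lower) and 1798 with limma and a replicate block (857 higher, 941 lower). Both limma counts take technical replicates as units. The deviations of same-numbered arrays from their group means correlated at r = −0.09, −0.00 and −0.03, so no deviation shared by number was seen. With 3 arrays a group this cannot show whether the numbers pair the arrays. Leaving out each array in turn gave 219 to 266 genes (76 to 83 higher, 139 to 186 lower). The filter, the mean of probe sets, quantile normalization, median centring and dropping the overlap rule gave 203 to 250. The 48 genes of both experiments became 115 with 8 averages (79 rose, 36 fell), 1627 with duplicateCorrelation over 36 arrays (719 rose, 908 fell), 1722 without the experiment term (924 rose, 798 fell), and 0 without the SCC25 or the second VDH15 experiment, each of which leaves 1 shCD36 average on palmitate. The diet interaction, 0 with all averages, gave 4 (1 higher, 3 lower) with 8 averages, and SCC25 minus VDH15, over both diets, gave 1, higher. The Adipocyte median of −0.13 log2 was 0.012 without the filter, and the immediate early median of −0.09 log2 was 0.019 after quantile normalization; the causes were not tested. Of the 77 named genes that were called, 0 changed direction under the settings run (arrays left out, mean of probe sets, quantile normalization), and of all 178 named genes 39 moved by more than the array SD with the mean of probe sets.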
